A study of Drosophila melanogaster with 35 samples.

Results

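Cytosolic ribosomal proteins are described here across 17 poly(A) RNA libraries of fat body from adult female Drosophila melanogaster, the fly tissue that stores nutrients and secretes yolk and serum proteins. Members were all genes of the fat body count table whose FlyBase symbol begins with RpL or RpS followed by a digit or P, a rule that uses no measured value. It found 90 of the 14649 genes listed. Of these, 77 are the canonical genes, made up of 43 of the large subunit, 29 of the small subunit, 3 of the acidic stalk and 2 that are made as ubiquitin fusions. The remaining 13 are listed paralogues. The 2 genes sta (RpSA) and Rack1, whose proteins sit on the small subunit, carry other symbols and are given only beside the results.

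The libraries came from flies aged 30 days in 4 groups. S106>UASfoxo switch (4 libraries) held flies with the S106 driver and a UAS transgene for dFOXO, the forkhead factor of insulin signalling, that ate 200 µM RU486 for 21 days and control food for 7 days. S106>UASfoxo control (4 libraries) had the same genotype and is labelled as without RU486. S106 switch (4 libraries) had the driver alone and the same RU486 course, and S106 control (5 libraries) had the driver alone without RU486. S106 is a GeneSwitch driver, active in adult fat body and gut when the flies eat the steroid RU486, so every group carries the driver and only the S106>UASfoxo groups can overexpress dFOXO. All 4 groups were mated before the course began, and dissection followed a week without the drug. The labels give neither the number of flies per library nor the cultures they came from, so a p-value here reflects only how far these libraries spread, which may be technical.

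A ribosome holds one copy of most of its proteins, so cells keep the proteins in balance, and surplus protein is degraded. In flies, loss of one copy of many of these genes gives the Minute phenotype of slow development and thin bristles. The mRNAs are among the most abundant of most tissues, and TOR signalling controls their translation more than their amount. Several genes have a retrogene or tandem copy, and in flies some of these copies are used mainly in the germ line.

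Library totals ran from 6708078 to 27527703 counts. The foxo gene stood at 157, 160, 240 and 95.02 CPM (read counts scaled to library size with TMM factors) in the S106>UASfoxo switch libraries, 93.3, 72.5, 177 and 78.2 CPM in the S106>UASfoxo control libraries, 90.8, 143, 155 and 90.6 CPM in the S106 switch libraries, and 100.1, 138, 118, 194 and 83.3 CPM in the S106 control libraries, so a week after the drug its mRNA overlapped between all groups. All 11 fat body markers were detected, with the secreted yolk proteins among them, although Fbp1 was at 0 in at least 1 library. The summed level of the 11 was lowest in S106>UASfoxo control 4, at 25940 CPM. That library stands apart in several results below, and the values that turn on it are also given without it. The ovary and egg markers summed to between 65.9 and 7231 CPM, so the libraries differed widely in ovarian RNA.

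The 90 genes took about an eighth of the counts, and the groups overlapped. They held 11.0, 12.1, 11.9 and 14.6% of counts in the S106>UASfoxo switch libraries, with a mean of 12.4 ± 1.53% (SD, n = 4). They held 12.2, 14.2, 12.4 and 15.9% in the S106>UASfoxo control libraries, with a mean of 13.7 ± 1.76% (SD, n = 4). In the S106 switch libraries the share was 11.4, 12.4, 12.4 and 10.8%, with a mean of 11.8 ± 0.800% (SD, n = 4), and in the S106 control libraries it was 12.4, 11.6, 13.0, 11.9 and 9.55%, with a mean of 11.7 ± 1.32% (SD, n = 5). The highest share belonged to S106>UASfoxo control 4 and the lowest to S106 control 5. The 95% Wilson interval in S106>UASfoxo control 4, the shallowest library, ran from 15.9 to 16.0%, and such intervals cover counting error only. The large subunit genes alone averaged 7.00 ± 0.689% of counts in S106>UASfoxo switch and 7.52 ± 0.908% in S106>UASfoxo control, with 6.60 ± 0.503% in S106 switch and 6.52 ± 0.719% in S106 control (SD). The small subunit genes averaged 4.36 ± 0.687% in S106>UASfoxo switch and 5.10 ± 0.701% in S106>UASfoxo control, with 4.15 ± 0.260% in S106 switch and 4.20 ± 0.522% in S106 control (SD).

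**Figure D1:**
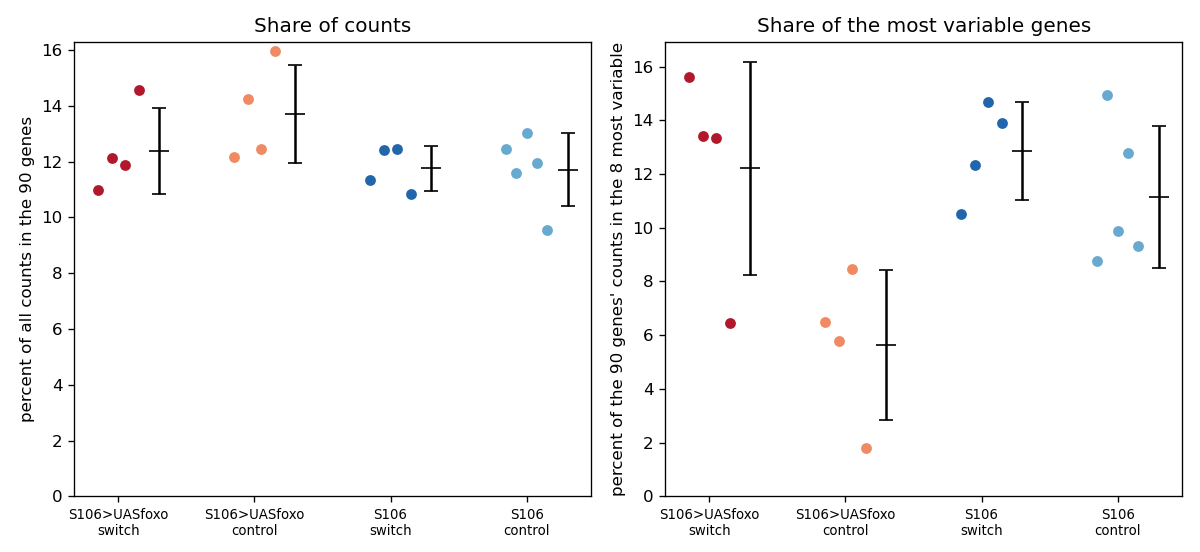
Left, percent of all counts in the 90 ribosomal protein genes, and right, percent of those counts in the 8 genes that varied most around the median gene; points are libraries and bars are the group mean with SD (n = 4, 4, 4 and 5). The left-hand shares overlap between groups around means of 11.7 to 13.7%, while on the right the S106>UASfoxo control libraries lie between 1.79 and 8.47%, and the S106>UASfoxo switch libraries lie between 6.46 and 15.6%. The 8 genes were picked by their spread over these same libraries.

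The canonical genes were high in level, although they differed among themselves. Their mean over libraries ran from 364 CPM for RpL39 to 4210 CPM for RpL5, and 72 of the 77 were among the 200 genes of highest mean CPM in the table. Per kilobase of exon the median canonical gene stood at 1691 CPM per kb, with quartiles of 1264 and 2084 CPM per kb. RpL41, which encodes a peptide of the large subunit so short that its coding sequence has 75 nucleotides, had the highest level at 6952 CPM per kb. RpL23 followed at 4321 CPM per kb, and the ubiquitin fusion RpS27A stood at 3490 CPM per kb and RpL27A at 2965 CPM per kb. The lowest canonical levels were those of RpL38 at 472, RpS21 at 605 and RpS10b at 745 CPM per kb. RpL40, the other ubiquitin fusion, stood at 2105 CPM per kb, and RpL32, a common reference gene of fly expression studies, at 2540 CPM per kb. The stalk proteins recruit elongation factors to the ribosome, and RpLP0, RpLP1 and RpLP2 stood at 1493, 2897 and 2286 CPM per kb. Over the 77 canonical genes the level per kilobase had a Spearman rho of −0.54 with exon length. That level is itself divided by exon length, so a negative rho is partly built in and is not read as higher expression of short genes. The genes are not independent replicates and share the same libraries.

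**Figure D2:**
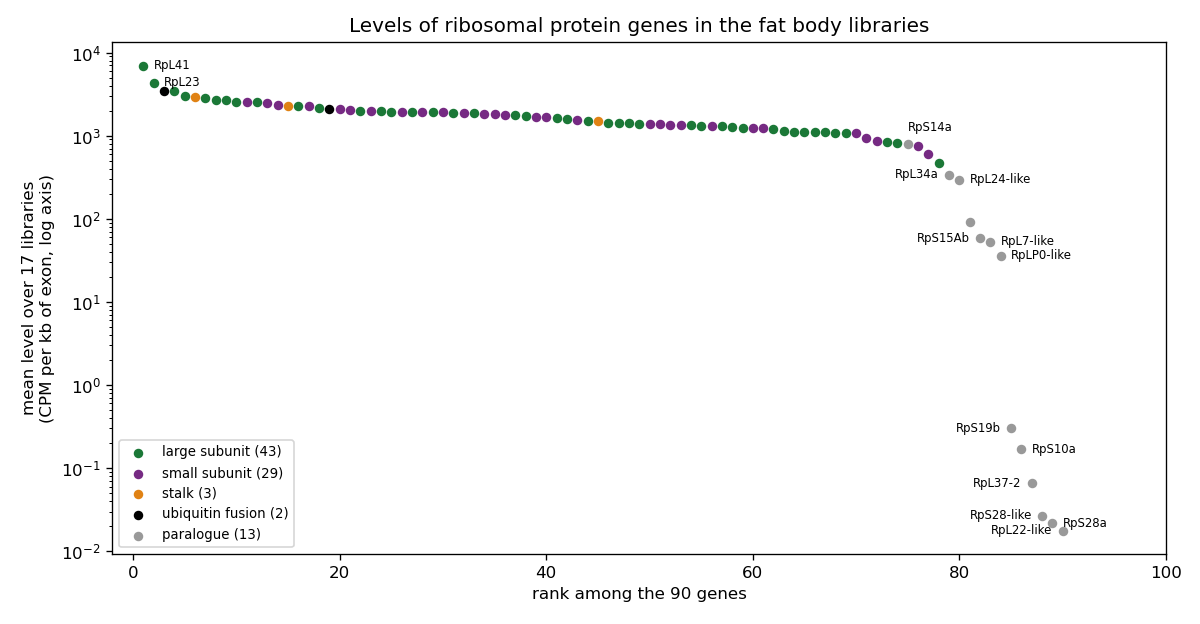
Mean level of each of the 90 ribosomal protein genes over 17 fat body libraries, in CPM per kb of exon on a log axis, ordered by rank and coloured by role. The 77 canonical genes span 472 to 6952 CPM per kb, 7 paralogues lie between 36.0 and 794 CPM per kb, and 6 paralogues lie far below 1.

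The 13 paralogues fell into 2 sets. At or near 0 were 6 of them: RpS28a had 1 count over the 17 libraries, RpS28-like 2, RpL22-like 4, RpL37-2 5, RpS10a 18 and RpS19b 36. RpL22, RpS10b and RpS19a, the canonical partners of RpL22-like, RpS10a and RpS19b, stood at 828.7, 745 and 1370 CPM per kb in the same libraries. A count of 0 allows up to 3 counts, which are 0.128 to 0.476 CPM here, depending on the effective size of the library. RpS19b had its highest count, 10, in S106>UASfoxo control 4, and it was at 0 in 6 libraries. RpL10Aa, the listed partner of RpL10Ab, was not analysed here.

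The other 7 paralogues were detected in all libraries, and values are given here for 6 of them. RpS14a and RpS14b, near-identical neighbours on the X chromosome, stood at 696 and 559 CPM. Per kilobase of exon the order was reversed, with RpS14a at 794 and RpS14b at 936 CPM per kb. RpS14a took 49.9 to 60.3% of the pair's counts, a share not scaled by exon length. How reads were divided between such copies is not given in the sources used here, so that split is uncertain. RpL34a took 13.7 to 22.6% of the counts of its pair with RpL34b, and RpS15Ab 1.70 to 4.30% of the pair with RpS15Aa. RpL24-like, RpL7-like and RpLP0-like are relatives of ribosome assembly factors known from yeast (Rlp24, Rlp7 and Mrt4), and their mean levels were 227, 94.3 and 34.1 CPM. RpL24-like took 15.0 to 23.8% of the counts with RpL24, and RpL7-like took 3.34 to 6.60% with RpL7. RpLP0-like took 0.624 to 18.2% with RpLP0, the top of that range being S106>UASfoxo control 4, where RpLP0 was low.

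RpL24-like and RpL24 were set against the mean log2 CPM of 27 ovary and egg markers, those of the list's 28 genes that passed the filter on low counts; the list holds no ribosomal protein gene. Over the 17 libraries Pearson's r was −0.603 for RpL24-like and −0.759 for RpL24, and Spearman's rho was −0.588 and −0.681. The two-sided permutation p-values of r over 100000 resamples, adjusted over 2 relations, were 0.0101 and 0.00120, and those of rho 0.0146 and 0.00676. Without the 2 libraries farthest from the median of the marker mean, r was −0.512 for RpL24-like and −0.694 for RpL24. With both measures centred within the 5 library rounds, groups of libraries with neighbouring numbers in the labels, r was −0.571 and −0.602, both with an adjusted permutation p of 0.0393. The relations rest on the TMM scaling: without TMM factors r was 0.361 for RpL24-like and −0.223 for RpL24. The marker mean left a gap between 9 libraries, from −0.74 to 2.05, and 8 libraries, from 3.66 to 6.84, so the relations were also taken on each side of it, a step added after seeing the data. Above the gap r was −0.244 for RpL24-like and −0.072 for RpL24, and below it 0.068 and −0.387, with exact two-sided permutation p-values of 0.874 for each of the 4 after adjustment over them. Neither relation passed the test within either side. The median log2 deviation of the canonical genes, described below, was below 0 in most libraries above the gap. It was −0.51 in S106 switch 1, −0.73 in S106 switch 4, −0.86 in S106 control 5 and −0.24 in S106 control 1. In S106>UASfoxo switch 1 it was −0.22 and in S106>UASfoxo control 1 −0.13, but 0.31 in S106>UASfoxo switch 4 and 0.08 in S106>UASfoxo control 4. Below the gap it was above 0 in every library, from 0.08 in S106 control 2 to 0.49 in S106>UASfoxo control 2. Whether the relations are particular to these 2 genes was not tested. In bulk tissue, fewer cells of a type and less RNA per cell cannot be told apart.

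The ovary list summed to 349 to 3359 CPM in the S106>UASfoxo switch group, 68.3 to 3138 CPM in the S106>UASfoxo control group, 86.1 to 7231 CPM in S106 switch and 65.9 to 4918 CPM in the S106 control group. Of its 28 genes in the table none was at 0 in all libraries, and 16 were at 0 in at least 1 library, among them the eggshell genes Vm26Aa, Vm26Ab, Vm32E, Vm34Ca, Cp15, Cp16, Cp19, Cp36 and Cp38. The part of ovarian RNA in the members' levels was not tested.

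Coherence between libraries was described by taking each canonical gene's log2 CPM minus its own mean over the libraries, and then the median over the 77 genes in each library. This median member moved by an SD of 0.40 (log2) between libraries under TMM scaling and 0.21 without TMM factors. It stood at −0.22, 0.31, 0.12 and 0.31 in S106>UASfoxo switch, −0.13, 0.49, 0.26 and 0.08 in S106>UASfoxo control, −0.51, 0.18, 0.33 and −0.73 in S106 switch, and −0.24, 0.08, 0.49, 0.18 and −0.86 in S106 control. The 3 lowest libraries, S106 control 5, S106 switch 4 and S106 switch 1, had TMM factors of 1.45, 1.41 and 1.33 and ovary and egg sums of 2489, 7231 and 4358 CPM. The part of either in the low medians was not tested. Around the median member most genes kept close: the median SD of a gene was 0.14 (log2) under TMM and 57 of 77 genes had an SD below 0.2.

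The tightest genes were RpS20, of the small subunit, with an SD around the median member of 0.06 (log2), RpL5, which carries the 5S rRNA into the large subunit, with 0.07, RpS18 with 0.07, RpLP2 with 0.08 and RpL7 with 0.08. RpL5 stood at 3495, 4908, 4438 and 4699 CPM in the S106>UASfoxo switch group, 4048, 6043, 4678 and 3963 CPM in the S106>UASfoxo control group, 2818, 4787, 5016 and 2293 CPM in the S106 switch group, and 3292, 4526, 5701, 4656 and 2204 CPM in the S106 control group. S106 control 5 and S106 switch 4 were the low libraries for RpL5, as for the median member, and the groups overlapped.

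Against this background 8 genes varied together by far more. They were RpL4 with an SD around the median member of 1.03 (log2), RpLP0 with 0.93, RpL8 with 0.87, RpL22 with 0.81, RpL7A with 0.80, RpL23A with 0.80, RpL3 with 0.76 and RpS2 with 0.68. These 8 were picked after their values were seen, by an SD over 0.5, so their spread is a description. The choice used the same libraries as the group comparisons, so their shares and fold changes between groups are descriptions too. The next genes were RpL13 at 0.46 and RpL6 at 0.43, and the other 69 genes had a median SD of 0.13. RpL3 and RpL4 lie in the core of the large subunit, RpL8 near its catalytic centre, RpL23A at the exit of the peptide tunnel, RpL7A and RpL22 at its surface, and RpS2 near the path of the mRNA on the small subunit. All 8 were lowest in S106>UASfoxo control 4, and their highest library was a median of 10.7 times their lowest in CPM, against 2.82 times for the other canonical genes. Without S106>UASfoxo control 4 those medians were 3.80 and 2.81 times, and the SDs of the 8 around the median member ran from 0.39 to 0.79 (log2), above the highest of the other 69, 0.36. RpL3, RpS2, RpL7A and RpL23A then fell below the SD of 0.5 used for the choice, at 0.39, 0.44, 0.46 and 0.48.

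RpL4 shows the pattern. It stood at 2566, 3017, 2764 and 811 CPM in the S106>UASfoxo switch group, 714, 802, 1305 and 231 CPM in the S106>UASfoxo control group, 1017, 2065, 3915 and 1484 CPM in the S106 switch group, and 916, 2781, 2208, 2349 and 618 CPM in the S106 control group. In S106>UASfoxo switch 3 of the 4 libraries had 2566 CPM or more and the other was as low as the controls of that genotype, which had 1305 CPM or less. RpLP0, the base of the stalk, stood at 2433, 3158, 2509 and 1380 CPM in the S106>UASfoxo switch group, 944, 1211, 1656 and 247 CPM in the S106>UASfoxo control group, 1429, 2769, 3278 and 1695 CPM in the S106 switch group, and 1220, 3234, 2380, 3250 and 915 CPM in the S106 control group. Its partners RpLP1 and RpLP2 did not share that profile: in S106>UASfoxo control 4, where RpLP0 was lowest, RpLP1 had 2344 CPM and RpLP2 1406 CPM, inside the range of their other libraries.

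RpS2 was the only small subunit gene among the 8. It stood at 1224, 1536, 1357 and 796 CPM in the S106>UASfoxo switch group, 634, 870, 913 and 235 CPM in the S106>UASfoxo control group, 717, 1391, 1698 and 866 CPM in the S106 switch group, and 720, 1490, 1287, 1337 and 399 CPM in the S106 control group. The remaining 5 genes were also lowest in S106>UASfoxo control 4, at 236 CPM for RpL8, 164 CPM for RpL22, 272 CPM for RpL7A, 304 CPM for RpL23A and 408 CPM for RpL3. As a share of the counts in all 90 genes the 8 took 15.6, 13.4, 13.3 and 6.46% in the S106>UASfoxo switch group, 6.49, 5.78, 8.47 and 1.79% in the S106>UASfoxo control group, 10.5, 12.3, 14.7 and 13.9% in the S106 switch group, and 8.76, 15.0, 9.87, 12.8 and 9.33% in the S106 control group. The S106>UASfoxo control libraries were all below the S106 control libraries in this share, and S106>UASfoxo switch 4 overlapped the controls of its genotype.

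In S106>UASfoxo control 4 a few genes went the opposite way. RpL41, RpL39 and RpL38, which encode some of the shortest proteins of the ribosome, had SDs around the median member of 0.38, 0.37 and 0.37 (log2). In S106>UASfoxo control 4 their deviations from it were 0.96, 0.55 and 0.75 (log2), where RpL4 was at −2.67 and RpS2 at −2.05. In other libraries the direction varied. RpL39 was at 0.19 in S106>UASfoxo switch 1, where RpL4 was at 1.10, and at 0.54 in S106>UASfoxo switch 4, where RpL4 was at −1.09. RpL39 lies against RpL12 on the opposite strand, and of the 90 genes 25 overlap an exon of a gene on the opposite strand, so their counts are uncertain where the counting did not use strand, which is not given in the sources used here. Among the 8, RpL4, RpL3 and RpL23A have such a partner.

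**Figure D3:**
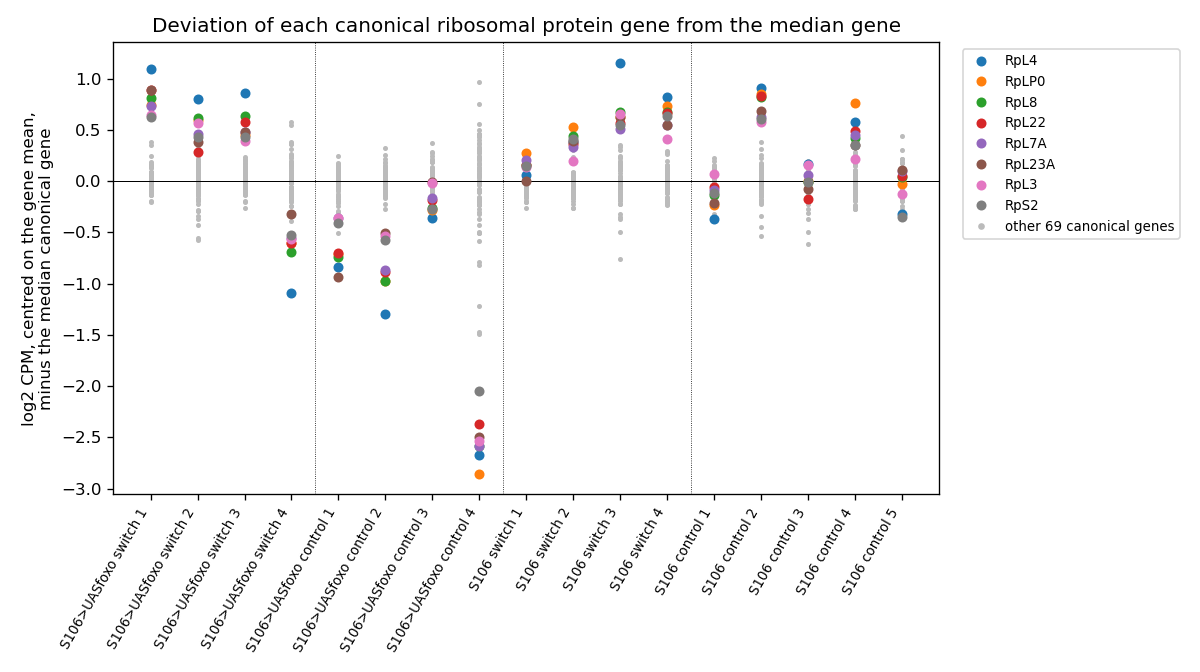
Each point is 1 canonical ribosomal protein gene in 1 library, as log2 CPM centred on the gene's mean minus the median of the 77 genes; the 8 genes with an SD over 0.5 are coloured and the other 69 are grey. The coloured genes sit above most grey points in S106>UASfoxo switch 1 to 3, all below 0 in S106>UASfoxo switch 4 and in the 4 S106>UASfoxo control libraries, and lowest in S106>UASfoxo control 4, with RpL4 at −2.67.

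The 8 are among the longest canonical genes. Their coding sequences in the Ensembl annotation of BDGP6 run from 768 to 1248 nucleotides, and only 4 other canonical genes, RpL5, RpS3A, RpS4 and RpL6, are as long as the shortest of them. A single component took 86.5% of the variance of the 77 genes around the median member, and 72.4% without S106>UASfoxo control 4. Over the 77 genes the loadings of that component followed coding length with an absolute Spearman rho of 0.725, and 0.698 without S106>UASfoxo control 4, as a description across genes that share the libraries. RpL22 and RpL5 both have 897 coding nucleotides, with SDs around the median member of 0.81 and 0.07 (log2). The rho between coding length and the SD itself was 0.303, and 0.174 without S106>UASfoxo control 4.

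Length moved in the whole table too. The median log2 deviation of all tested genes with a coding length over 2000 nucleotides was 0.30, 0.05, 0.19 and −0.15 in S106>UASfoxo switch, 0.01, −0.42, −0.09 and −0.41 in S106>UASfoxo control, 0.13, 0.00, 0.14 and 0.36 in S106 switch, and 0.05, 0.01, −0.09, 0.08 and 0.19 in S106 control. Genes under 600 nucleotides were at 0.44 in S106>UASfoxo control 4, 0.36 in S106>UASfoxo control 2 and 0.35 in S106>UASfoxo switch 4, and no other library exceeded 0.18. Nuclear rRNA took 0.488% of counts in S106>UASfoxo control 2 and 0.353% in S106>UASfoxo control 4, and at most 0.0728% in the other libraries. The part of these in the pattern of the 8 genes was not tested.

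The first question of the design is what a past period of dFOXO overexpression leaves in the tissue, read from S106>UASfoxo switch against the control of that genotype. No ribosomal protein gene passed edgeR's quasi-likelihood test at an adjusted p of 0.05, and 0.0% of all 9819 genes tested did. By an unadjusted p under 0.05, 5 of the 84 members tested were higher, where 10.1% of all genes were, and 1 was lower, where 2.82% were, both below the share of all genes. DESeq2 and limma-voom also called 0 members, with 7 and 8 at an unadjusted p under 0.05, where 15.5% and 12.9% of all genes were. The 84 are the members that passed the filter on low counts, and the other 6 are the paralogues near 0.

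The 5 higher ones all belong to the 8 variable genes, which were picked by their spread over these same libraries. RpL4 had a log2 fold change of 1.59 ± 0.60 (SE), with an adjusted p of 0.296 in edgeR's quasi-likelihood test. RpL8 stood at 1.27 ± 0.50, RpLP0 at 1.22 ± 0.52, RpL22 at 1.10 ± 0.47 and RpL7A at 1.01 ± 0.47, with adjusted p-values of 0.311, 0.343 and 0.343 in edgeR's test for the first 3. RpL8 stood at 2028, 2552, 2268 and 1034 CPM in the S106>UASfoxo switch group, against 734, 960, 1341 and 236 CPM in the S106>UASfoxo control group. Here and for RpL4, 3 of the 4 switch libraries exceeded every control library of the genotype, and switch 4 overlapped them. The 8 genes had a median of 1.05 (log2 fold change), and of 0.75 without S106>UASfoxo control 4, where 1 member was left at an unadjusted p under 0.05, as also without S106>UASfoxo switch 2. That count of 6 was 3 without S106>UASfoxo control 1 or S106>UASfoxo switch 1 and 2 without S106>UASfoxo switch 3. It rose to 8 without S106>UASfoxo control 3 and to 7 without S106>UASfoxo switch 4. The share of all genes with each library left out is not given here, so these moves are not read as particular to the members.

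Marker lists of other cell types were read in the same comparison. Of 10 enterocyte and digestion markers, genes of gut enzymes, 10 were above 0, with a median log2 fold change of 2.69 and 6 at an unadjusted p under 0.05. Their sum was 33.3, 719, 99.5 and 141 CPM in the S106>UASfoxo switch group, against 60.7, 79.3, 28.3 and 50.7 CPM in the S106>UASfoxo control group. Switch 2 was far the highest, and switch 1 lay inside the range of those controls. Jon99Ciii and Lip3 were at 0 in at least 1 library. Of 8 hemocyte markers 7 were above 0, with a median of 0.41 and 3 at an unadjusted p under 0.05, and they summed to 324 to 988 CPM in the S106>UASfoxo switch group, against 277 to 385 CPM in the S106>UASfoxo control group. Of 10 fat body markers 8 were above 0, with a median of 0.67. Above 0 were also 10 of 12 muscle, 6 of 7 neuron, 4 of 6 oenocyte and 16 of 27 ovary and egg markers. The same held for 3 of 3 spermatheca and 3 of 3 Malpighian tubule markers, and for 0 of 1 testis marker. Among all genes 48.5% were above 0, and 10.1% were higher at an unadjusted p under 0.05. Between S106>UASfoxo control and S106 control the medians were −1.77 for the enterocyte list, −0.28 for the hemocyte list and −0.38 for the fat body list. The part of these in the ribosomal protein values was not tested.

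The lower one was RpLP0-like, at −0.51 ± 0.22 (log2, SE) with an adjusted p of 0.337 in edgeR's quasi-likelihood test. It stood at 32.3, 19.8, 27.9 and 36.1 CPM in the S106>UASfoxo switch group, against 36.0, 39.3, 35.9 and 54.9 CPM in the S106>UASfoxo control group. Only switch 4 reached the level of the control libraries. It overlaps Jra on the opposite strand.

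The median over all members, with the 8 variable genes included, lay near 0. The median log2 fold change of the 84 members was −0.08, beside −0.02 over all genes tested, and 27 of 84 were above 0, beside 48.5% of all genes. Under library totals the members' median was −0.28 while that of all genes moved to −0.22, and with a trend on exon length removed the members' median turned to 0.06. Without S106>UASfoxo control 2 it was 0.0094, with 46 of 84 above 0. Under library totals 9 members were higher at an unadjusted p under 0.05, where 7.94% of all genes were, and 14 were lower, where 3.47% were. RpL32 had −0.03 ± 0.35 (log2, SE), which turned to 0.13 with the length trend removed and to at most 0.048 with a library left out. It stood at 1560, 2598, 2150 and 2693 CPM in the S106>UASfoxo switch group, against 1681, 2680, 2653 and 2194 CPM in the S106>UASfoxo control group, so the groups overlapped. RpS6, the substrate of S6 kinase, had 0.27 ± 0.35, from 2037, 3152, 2469 and 2421 CPM in the S106>UASfoxo switch group, against 1701, 2757, 2615 and 1286 CPM in the S106>UASfoxo control group.

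**Figure D4:**
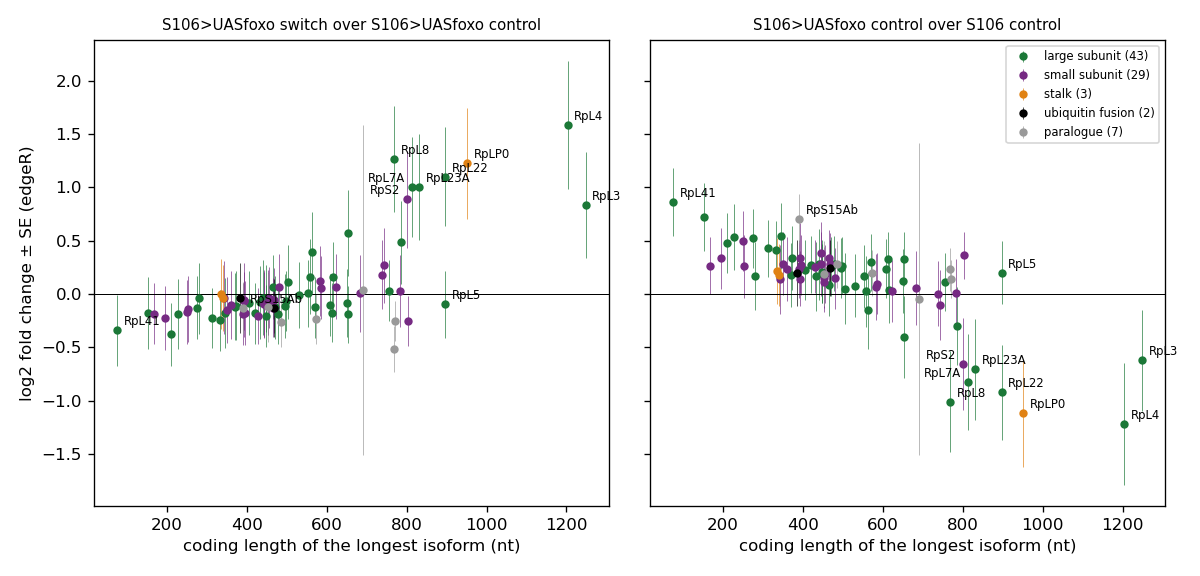
Log2 fold change with SE from edgeR against coding length in nucleotides for the 84 members tested, coloured by role. Left, S106>UASfoxo switch over S106>UASfoxo control, where RpL4 is at 1.59 and RpL5 near 0; right, S106>UASfoxo control over S106 control, where RpL4 is at −1.22 and RpL41 at 0.86, and the 2 panels share the S106>UASfoxo control libraries.

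In the driver-only flies the same course of RU486 left no call. S106 switch against S106 control had 0 members and 0.0% of genes past the adjusted threshold by edgeR, and 0 members at an unadjusted p under 0.05, where 0.693% of all genes were. The member median was −0.11 (log2), beside 0.01 for all genes, and −0.01 under library totals. Above 0 were 11 of 84 members, beside 51.6% of all genes. Single libraries turned this: 58 of 84 were above 0 without S106 control 3, with a median of 0.052, and 60 of 84 without S106 switch 4, with a median of 0.043. The smallest p belonged to RpLP0-like at −0.23 ± 0.20, RpL7-like at −0.18 ± 0.18, RpL10 at −0.24 ± 0.25, RpS3A at −0.20 ± 0.22 and RpL35 at −0.24 ± 0.30 (log2, SE), with adjusted p-values of 1.00 in edgeR's test. RpL10 joins the large subunit late, in the cytoplasm, and stood at 1239, 1992, 1884 and 1127 CPM in the S106 switch group, against 1578, 1958, 2279, 2247 and 1167 CPM in the S106 control group, ranges that overlap. RpL32 and RpS6 had −0.18 ± 0.34 and −0.04 ± 0.33.

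The difference of the 2 switch effects, S106>UASfoxo minus S106, was not called for any member. It had 0.0% of genes past the adjusted threshold by edgeR, and at an unadjusted p under 0.05 it had 0 members, where 1.88% of all genes were. The members' median difference was 0.05 (log2), beside 0.04 for all genes, and it turned to −0.25 under library totals, where all genes were at −0.26. Above 0 were 54 of 84, beside 52.9% of all genes. The tally ran from 22 of 84 without S106 control 3, with a median of −0.11, to 74 of 84 without S106 switch 2, with a median of 0.16, and the median was also below 0 without S106 switch 1, S106 switch 4, S106>UASfoxo control 1, S106>UASfoxo switch 2 or S106>UASfoxo switch 4. The 8 variable genes again had the largest differences, with RpL4 at 1.33 ± 0.81, RpLP0 at 1.16 ± 0.71, RpL8 at 1.15 ± 0.68, RpL22 at 1.05 ± 0.64 and RpL7A at 0.98 ± 0.64 (log2, SE), all with an adjusted p of 0.950 in edgeR's test. RpL32 and RpS6 had 0.15 ± 0.49 and 0.31 ± 0.48.

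S106>UASfoxo control against S106 control compares the genotypes without the drug, and shares the S106>UASfoxo control libraries with the first comparison. By edgeR 0 members passed, beside 0.0407% of genes, and at an unadjusted p under 0.05 there were 3 members higher, where 2.20% of all genes were, and 2 lower, where 8.83% were. DESeq2 called 0 members and had 9 at an unadjusted p under 0.05, where 13.3% of all genes were, and limma-voom called 0 and had 6, where 11.5% were. The median was 0.20 (log2), beside −0.01 for all genes, and 71 of 84 were above 0, beside 48.5%. With a library left out the median ran from 0.059, without S106 control 5, to 0.37, without S106 control 3. It was 0.11 without S106>UASfoxo control 2. Under library totals the member median was 0.31, and 37 members were higher at an unadjusted p under 0.05, where 2.75% of all genes were, and 7 lower, where 9.11% were.

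RpS15Ab had the smallest p, with a log2 fold change of 0.71 ± 0.23 (SE) and an adjusted p of 0.392 in edgeR's quasi-likelihood test. It stood at 53.4, 59.2, 50.5 and 57.4 CPM in the S106>UASfoxo control group, against 37.6, 32.5, 31.7, 46.2 and 20.8 CPM in the S106 control group. The 2 groups did not overlap for this paralogue. Its partner RpS15Aa stood at 1188, 1566, 1536 and 1581 CPM in the S106>UASfoxo control group, against 1043, 1239, 1834, 1380 and 738 CPM in the S106 control group, and those did. RpL41 had 0.86 ± 0.32 (log2, SE), from 1651, 3471, 3181 and 4243 CPM in the S106>UASfoxo control group, against 1749, 1503, 2246, 1962 and 1166 CPM in the S106 control group. In RpL41, 3 of the 4 S106>UASfoxo control libraries exceeded every S106 control library, and control 1 lay among them. RpL39 had 0.72 ± 0.32 (log2, SE), from 263, 601, 495 and 528 CPM in the S106>UASfoxo control group, against 230, 284, 311, 371 and 232 CPM in the S106 control group.

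The lower pair was RpLP0 at −1.12 ± 0.50 and RpL4 at −1.22 ± 0.57 (log2, SE), with adjusted p-values of 0.436 and 0.449 in edgeR's test. All 8 variable genes were lower here, with a median of −0.87, as a description of genes picked by their spread over these same libraries. Without S106>UASfoxo control 4 their median was −0.56, and 1 member was left at an unadjusted p under 0.05. The count of 5 members was 2 without S106>UASfoxo control 2 or S106 control 2, and 8 without S106 control 5. For these counts too, the share of all genes with a library left out is not given here. RpL32 and RpS6 had 0.28 ± 0.33 and −0.10 ± 0.33 (log2, SE).

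S106>UASfoxo switch against S106 switch compares the genotypes after the drug. By edgeR 0 members passed, beside 0.0509% of genes. RpS15Ab was the 1 member at an unadjusted p under 0.05, and it was higher, where 1.13% of all genes were; 0 were lower, where 0.438% were. It had 0.65 ± 0.25 (log2, SE) with an adjusted p of 0.978 in edgeR's quasi-likelihood test. RpS15Ab stood at 35.6, 55.2, 53.8 and 57.0 CPM in the S106>UASfoxo switch group, against 33.9, 36.9, 37.9 and 20.0 CPM in the S106 switch group. Here 3 of the 4 S106>UASfoxo switch libraries exceeded all S106 switch libraries and switch 1 lay among them.

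The median of the 84 members was 0.25 (log2), beside −0.03 for all genes, and 82 of 84 were above 0, beside 46.2% of all genes. The median was 0.088 without S106 switch 4 and 0.13 without S106 switch 1, and 0.45 without S106 switch 3, and at least 76 of 84 were above 0 with any library left out. The 1 member at an unadjusted p under 0.05 became 0 without S106 switch 4, and 2 without S106 switch 2 or 3, with the share of all genes not given here. Under library totals the member median was 0.07 and that of all genes −0.30, with 65 of 84 above 0, beside 25.1% of all genes. The members of smallest p after RpS15Ab were RpL41 at 0.56 ± 0.33, RpL10 at 0.38 ± 0.27, RpL37A at 0.42 ± 0.30 and RpL39 at 0.46 ± 0.34 (log2, SE). RpL41 stood at 1767, 1898, 2443 and 3818 CPM in the S106>UASfoxo switch group, against 1386, 2198, 2014 and 1120 CPM in the S106 switch group. The 8 variable genes were near the rest in this comparison, between 0.05 and 0.19, and 7 of them were below 0 under library totals. RpL32 and RpS6 had 0.43 ± 0.35 and 0.21 ± 0.35.

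Coding length ordered the fold changes of the members in several comparisons, as a description across genes. Spearman's rho between coding length and log2 fold change over the 84 members was 0.546 for S106>UASfoxo switch against control, where it was 0.397 over 9140 genes with a coding length, and 0.417 over the members without S106>UASfoxo control 4. It was 0.152 and 0.258 for S106 switch against control, 0.573 and 0.257 for the difference of the effects, −0.687 and −0.467 for S106>UASfoxo control against S106 control, and −0.480 and −0.154 for S106>UASfoxo switch against S106 switch. For S106 switch against control the members' rho ran from 0.027 without S106 switch 4, where all genes had 0.053, to 0.302 without S106 control 2. For S106>UASfoxo switch against S106 switch it was −0.201 without S106 switch 3 and turned to 0.281 without S106>UASfoxo switch 4, where all genes had 0.030. These comparisons share libraries, so their values are not independent.

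Other genes of the translation machinery were read from lists by role. In S106>UASfoxo switch against S106>UASfoxo control none passed the adjusted threshold by edgeR, and 48.5% of all genes were above 0. Of the 2 ribosome-associated genes outside the rule, Rack1 stood at 1.00 ± 0.48 and sta at 0.78 ± 0.46 (log2, SE). Of 10 elongation and termination genes 5 were above 0, with a median of 0.08; eEF1gamma, a subunit of the exchange factor, had 1.18 ± 0.50, eEF1alpha1, which brings tRNA to the ribosome, 0.66 ± 0.44, eEF2, which moves the ribosome along the mRNA, 0.31 ± 0.39 and eEF1beta −0.01 ± 0.29. Of 31 initiation genes 19 were above 0, with a median of 0.05, and eIF2Bdelta, of the exchange factor for eIF2, stood at 1.72 ± 0.44 with an adjusted p of 0.273 in edgeR's test. At an unadjusted p under 0.05, 4 of the 31 initiation genes were higher, where 10.1% of all genes were, and 1 was lower, where 2.82% were.

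Upstream of the ribosome the values pointed to either side. Of 25 biogenesis and nucleolar genes 7 were above 0, beside 48.5% of all genes. Their median was −0.19, and Fib, the methyltransferase of rRNA, stood at 0.82 ± 0.32 (log2, SE). All 11 genes of RNA polymerase I and its factors, which make the large rRNAs, were below 0 in the same comparison, with a median of −0.58 and none at an unadjusted p under 0.05. Between the undrugged genotypes, S106>UASfoxo over S106, the same 11 were all above 0, beside 48.5% of all genes, with a median of 0.34. Both comparisons share the S106>UASfoxo control libraries. In S106 switch against S106 control 3 of the 11 were above 0, beside 51.6% of all genes, and the median was −0.03. Among 15 regulators of ribosomal protein mRNAs the median was −0.01; gig, the fly TSC2 that holds TOR in check, stood at 0.79 ± 0.26, and Myc, which drives ribosome genes in growing cells, at −0.15 ± 0.21 (log2, SE), with adjusted p-values of 0.274 and 0.814 in edgeR's test. Myc stood at −0.63 ± 0.20 for the driver-only flies, with an adjusted p of 1.00.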

How the data were processed

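The deposited table holds raw read counts per gene for 17 fat body libraries, per the labels made from poly(A) RNA with a directional, molecularly barcoded kit; the submitters' processing notes name HISAT2, featureCounts and DESeq2. The build, the strand setting and any use of the barcodes: not given in the sources used here. The gut table was not used here because its identifiers do not go with its counts. Members and lists were chosen with earlier results of these data known. The 4 groups were fitted together in edgeR 4.0.16 (R 4.3.3) with filterByExpr, TMM and the robust quasi-likelihood test, with Benjamini-Hochberg adjustment at 0.05 over 9819 genes, which held 99.9% of the counts; the common biological coefficient of variation was 0.510. Log2 values used a prior count of 2. Coding and exon lengths are those of the Ensembl BDGP6 annotation, which need not be the authors' build. The named genes are a fixed set (RpL32, RpS6, the stalk, the ubiquitin fusions, paralogue pairs and others), the extremes of level and of spread, and the 5 members of smallest p in each comparison. Some members that this choice names are not reported here. Alternatives were other scalings and filters, DESeq2 1.42.0, limma-voom 3.58.1, blocks for the title number and the library round, removal of a length trend, and leaving out each library. Title numbers correlated from −0.52 to 0.77 and were not taken to pair libraries. Library rounds paired the control groups alone, with correlations of 0.51, 0.74, 0.41 and 0.69; with that block S106>UASfoxo control against S106 control had 2 genes called and 9 members at an unadjusted p under 0.05, where 16.8% of all genes were, against 4 and 5 without it. The steps were tested on simulated data.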

Additional observations from a re-analysis of the deposited data

Results flagged for a closer look

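Of 164 groups of 4 or 5 libraries examined over the named genes and the share of counts, 5 held a library whose gap to its nearest neighbour on the log2 scale exceeded Dixon's 95% critical value for its group's range, and chance gives about 1 in 20. The 5 flags do not exceed that rate. Some of the genes were named for their spread or p-value in these same libraries, and all share them, so the rate is only a rough guide. In the S106>UASfoxo switch group, replicate 4 was low for RpL4, at 811 CPM where the other 3 libraries had 2566 to 3017 CPM, and for RpL22, at 654 CPM where they had 1211 to 1308 CPM. Replicate 1 of that group was low for RpS10b, at 1010 CPM where the others had 1372 to 1430 CPM, and for RpS15Ab, at 35.6 CPM where the others had 53.8 to 57.0 CPM. In S106>UASfoxo control, replicate 1 was low for RpS15Aa, at 1188 CPM where the others had 1536 to 1581 CPM. S106>UASfoxo control 4 was not singled out for any gene in this way, although it held the lowest value of all 8 variable genes.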

How the results depend on the processing

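No member passed the adjusted threshold in any comparison or alternative fitted. Genes called by DESeq2 were 61 for S106>UASfoxo switch against S106>UASfoxo control, 1 for S106 switch against S106 control, 18 for S106>UASfoxo control against S106 control and 9 for S106>UASfoxo switch against S106 switch, where edgeR called 0, 0, 4 and 5. For the genotype controls limma-voom called 2, the title-number block 1, the library-round block 2, the compared groups alone 0, and 0 to 1 with a library left out. For the genotypes after the drug the compared groups alone called 1, and 2 to 4 with a library left out. Members at an unadjusted p under 0.05 numbered 23, 44 and 0 under library totals for S106>UASfoxo switch against control, for the genotype controls and for the genotypes after the drug, where the report has 6, 5 and 1. DESeq2 had 9 for the genotype controls. With the title number as replicate block these counts were 11, 11 and 3, and 11 for the difference of the switch effects; with the library round as block the genotype controls had 9 and the difference 8. With a library left out they ran from 1 to 8, 1 to 8 and 0 to 2, and from 0 to 2 for the difference. The share of all genes is not given for the title block, for the difference under the round block or with a library left out. Those counts are therefore not read as results about the members. The blocks share only numbers with most libraries, so a call moved by them is not a weaker or stronger effect.

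Small fold changes changed sign. For S106>UASfoxo switch against control, RpL32 (log2) was 0.13 with the length trend removed and −0.16 to 0.048 with a library left out. For S106 switch against control, RpS6 was 0.047 under library totals and −0.32 to 0.15 with a library left out, and RpL32 −0.48 to 0.053. For the difference, RpL32 was −0.13 under library totals and −0.086 to 0.45 with a library left out. For the genotype controls, RpS6 was 0.070 with the round block and −0.26 to 0.090 with a library left out. The fold changes of the 5 members of smallest p in each comparison kept their sign under every scaling, filter, tool and block fitted and with each library left out.

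Without the 10 most abundant genes in the denominator the members' share was 15.8% in S106>UASfoxo switch, 16.8% in S106>UASfoxo control, 14.5% in S106 switch and 14.6% in S106 control. The SD of the median member was 0.21 without TMM factors and 0.35 to 0.42 with a library left out, and the median SD around it 0.12 to 0.14. RpL24-like turned to r = 0.361 without TMM factors, and the rho of coding length with fold change after the drug ran from −0.572 to 0.281 with a library left out. The causes were not tested. Depth limits the 6 paralogues near 0, whose totals do not support a comparison.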
